A study of Mus musculus with 24 samples.

Results

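The genes described here are Bdnf and Ntf3, which encode neurotrophins, and Ntrk2, Ntrk3, Ngfr and Sort1, which encode the receptors that neurotrophins and their precursors bind. These 6 genes were chosen by name, not by their values, from the 49568 gene symbols counted in each library. Earlier results of these data were known when the genes were chosen. RNA of 1 hippocampus per mouse was sequenced in 24 male Aged mice on a C57Bl/6J background, which were 21 to 23 months old and had been through no behavioural test. There were 6 wild type mice in standard housing (WTSH), 6 wild type mice in environmental enrichment (WTEE), 6 MSK1 kinase dead mice in standard housing (KDSH) and 6 MSK1 kinase dead mice in enrichment (KDEE). MSK1 kinase dead (MSK1 KD) mice are homozygous for a point mutation in the endogenous gene that inactivates the N-terminal kinase domain in every cell, and they were bred as a line separate from the WT line, so genotype and line cannot be told apart. From 18 months of age, enriched mice had the larger cages made for rats, furnished with toys, tubes, a ladder and a running wheel, and more males shared a cage than in standard housing. The labels do not say which mice shared a cage. The study left out WTSH mice 4 and 7 and KDSH mouse 6, so the groups compared held 4 WTSH, 6 WTEE, 5 KDSH and 6 KDEE mice.

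BDNF is released by neurons and binds the receptor tyrosine kinase TrkB, the product of Ntrk2, which signals through adaptor proteins to the ERK cascade. ERK activates MSK1, which phosphorylates the transcription factor CREB and histone H3, and CREB in turn acts on genes that include Bdnf. NT-3, the product of Ntf3, acts mainly through TrkC (Ntrk3). The uncleaved precursors of neurotrophins bind the p75 neurotrophin receptor (Ngfr) together with sortilin (Sort1), which also sorts neurotrophins within the cell. In the hippocampus, BDNF is known for its part in synaptic plasticity and in the response to exercise and enrichment. The question put to these libraries was whether the RNA of these genes differed with enrichment or with the loss of MSK1 kinase activity.

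Each of the 6 genes was counted once, with all of its transcripts together. On GRCm38 with the GENCODE M21 annotation, Bdnf (ENSMUSG00000048482.14) lies on the plus strand at chr2:109674700-109727007 and has 11 annotated transcripts, all protein-coding, that start from alternative first exons. Ntf3 (ENSMUSG00000049107.13) lies at chr6:126101412-126166910 on the minus strand. Ntrk2 (ENSMUSG00000055254.15) lies at chr13:58806569-59133970 on the plus strand, and Ntrk3 (ENSMUSG00000059146.12) at chr7:78175959-78738012 on the minus strand. Ngfr (ENSMUSG00000000120.6) lies at chr11:95568818-95587735 on the minus strand and Sort1 (ENSMUSG00000068747.14) at chr3:108284082-108361511 on the plus strand. Both Trk genes give rise to full-length receptors and to shorter forms without the kinase domain, and counts per gene cannot separate them. Bdnf shares 896 bp of its exons (14.4%) with Gm45346, an antisense gene, and Sort1 shares 338 bp (4.47%) with the antisense gene Gm12523. Reads were counted without regard to strand, so reads of each pair of genes within these stretches cannot be told apart. Ambiguous read pairs were kept out of all totals, so such reads may be missing from the counts of Bdnf and Sort1.

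RefSeq gave 11 promoter windows (GRCm38.p6, from 250 bases before to 50 bases after an annotated start) for 4 of the 6 genes, of which 7 belonged to Bdnf, 2 to Ntf3 and 1 each to Ntrk2 and Ngfr. Ntrk3 and Sort1 had none. Because MSK1 acts on CREB, the windows were searched on both strands for the short CREB site TGACG, which reads as CGTCA on the other strand. It occurred in 1 of the 11 windows, a window of Bdnf, against 20.8% of 32851 windows of the same length. The full palindrome TGACGTCA, which contains the short site, occurred in 0 of the 11 windows and in 1.79% of all. The window with the match is shown because it was the only 1 of the 11 that had the short site. It lies on the plus strand at chr2:109692186-109692485, and the capitals mark the short site, which begins 35 bases before the transcript start that defines this window, an alternative start of Bdnf within the gene.
Bdnf window: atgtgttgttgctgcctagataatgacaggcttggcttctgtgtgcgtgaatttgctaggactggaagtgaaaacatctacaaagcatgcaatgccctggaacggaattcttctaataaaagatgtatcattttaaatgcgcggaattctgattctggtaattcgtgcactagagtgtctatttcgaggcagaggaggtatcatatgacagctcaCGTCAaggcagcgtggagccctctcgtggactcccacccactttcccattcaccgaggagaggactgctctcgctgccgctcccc
A match of letters is a description of the sequence and does not show that CREB was bound there.

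The 21 libraries held 27410239 to 71907130 read pairs on genes, with a median of 47549989, and the 3 left out held 15800187 to 39585901. No 2 libraries had identical counts. The marker lists of the dentate gyrus, CA1, CA2 and CA3 were detected in full in the 21 libraries, while the list of septal and basal forebrain cholinergic neurons summed to at most 1.89 CPM (read pairs per gene scaled to the total of the library). Genes of the choroid plexus, a tissue next to the hippocampus, summed from 25.4 to 9710 CPM, with 5 libraries over 2000 CPM. In bulk tissue, a change in the number of cells of a type and a change in the RNA per cell cannot be told apart. Library WTEE 10 stood apart from the rest. Over 1927 genes with transcripts of at most 2000 bp its median log2 deviation from the median library was 0.57, and over 2008 genes with transcripts longer than 6000 bp it was -0.57. In the other 20 libraries these medians lay between -0.12 and 0.17 and between -0.15 and 0.10. In WTEE 10 the summed markers of excitatory neurons (5590 CPM), astrocytes (3798 CPM) and oligodendrocyte precursors (81.8 CPM) were the lowest of the 21 libraries. Those of endothelial cells were the highest (191 CPM), and those of CA3 (250.3 CPM) and CA2 (278 CPM) pyramidal cells were among the higher ones. Those of dentate granule cells (240.1 CPM) and CA1 pyramidal cells (599.1 CPM) each had rank 20 of the 21 libraries, counted from the highest. The values below include WTEE 10 unless stated, and the values of Ntrk2, Ntrk3 and Sort1, the members lowest in it, are also given without it where it moves them most.

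The MSK1 gene Rps6ka5 itself was at 23.3 ± 2.1 CPM in WTSH (SD, n = 4), 21.7 ± 3.95 in WTEE (n = 6), 24.1 ± 0.456 in KDSH (n = 5) and 23.7 ± 0.572 in KDEE (n = 6). Its log2 fold change between genotypes was 0.09 (SE 0.07, unadjusted p = 0.231, edgeR, 11 against 10 mice). WTEE 10 was the lowest at 13.9 CPM, 0.585 times the median of the others, and over the other 20 libraries Rps6ka5 was at 23.6 ± 1.08 CPM (SD). The kinase dead allele is a point mutation, so the level of this gene does not check the genotype labels. The authors looked for the mutated base in the aligned reads and reported it in the MSK1 KD samples.

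Per length of exon, which allows levels to be compared between genes, Sort1 was the highest of the 6 genes and Ngfr the lowest. Sort1 was at 90.2 ± 9.77 FPKM (CPM per kb of exon, SD, n = 21) and Ntrk2 at 36.2 ± 3.59. Ntrk3 was at 7.35 ± 1.2 FPKM and Bdnf at 5.59 ± 0.596 FPKM. Ntf3 was at 3.09 ± 0.45 FPKM and Ngfr at 1.17 ± 0.312 FPKM. Over the 21 libraries the ranges of Ntrk3 (3.45 to 8.67 FPKM) and Bdnf (4.8 to 7.62 FPKM) overlapped, and those of the other neighbours in this order did not. With the length of the longest transcript in place of all exons, the order was the same, with Ntrk2 at 79.9 FPKM and Bdnf at 8.15 FPKM.

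**Figure D1:**
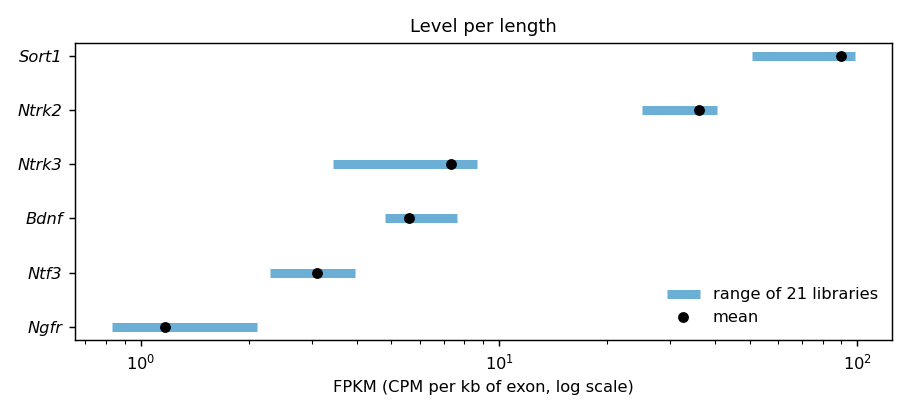
Level of the 6 genes in FPKM (CPM per kb of exon, log scale), with the mean of 21 libraries as a point and their range as a bar. Sort1 (mean 90.2) and Ntrk2 (36.2) lie above the other 4 genes, and only the bars of Ntrk3 and Bdnf overlap between neighbours.

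None of the 6 genes was called in any of the 7 comparisons made. A call required an adjusted p value (Benjamini-Hochberg, over 20187 genes) under 0.05 in the quasi-likelihood test of edgeR together with an absolute log2 fold change over 0.38. For WTEE minus WTSH, KDEE minus KDSH, KDSH minus WTSH, KDEE minus WTEE, the interaction of genotype with housing and the genotypes over both housings, 0 of 6 members were called and percent called over all genes was 0. For the housings over both genotypes, 0 of 6 were called against 0.00495% of all genes, which is 1 gene. DESeq2 called 0 of 6 in each of the 7 comparisons. The lowest adjusted p value of a member was 0.247 and the largest absolute log2 fold change was 0.26. In each of the 4 comparisons of 2 groups, 0 of 6 members had groups that did not overlap, against 0.986% of all genes for WTEE minus WTSH, 1.84% for KDEE minus KDSH, 0.644% for KDSH minus WTSH and 0.624% for KDEE minus WTEE. Neighbours in the order of the group means also overlapped for every member, and the ratio of the highest to the lowest group mean was 1.12 to 1.21.

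At an unadjusted p under 0.05, 3 of the 42 tests passed, Bdnf in KDEE minus WTEE and between genotypes and Ntrk3 between housings. That made 1 of 6 members in KDEE minus WTEE, where 4.99% of all genes passed, 1 of 6 between genotypes, where 1.9% passed, and 1 of 6 between housings, where 18.9% passed. In the other comparisons 0 of 6 passed, against 6.55% of all genes for WTEE minus WTSH, 11.6% for KDEE minus KDSH, 1% for KDSH minus WTSH and 3.26% for the interaction. The median log2 fold change of all genes was within 0.01 of 0 in all 7 comparisons.

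**Figure D2:**
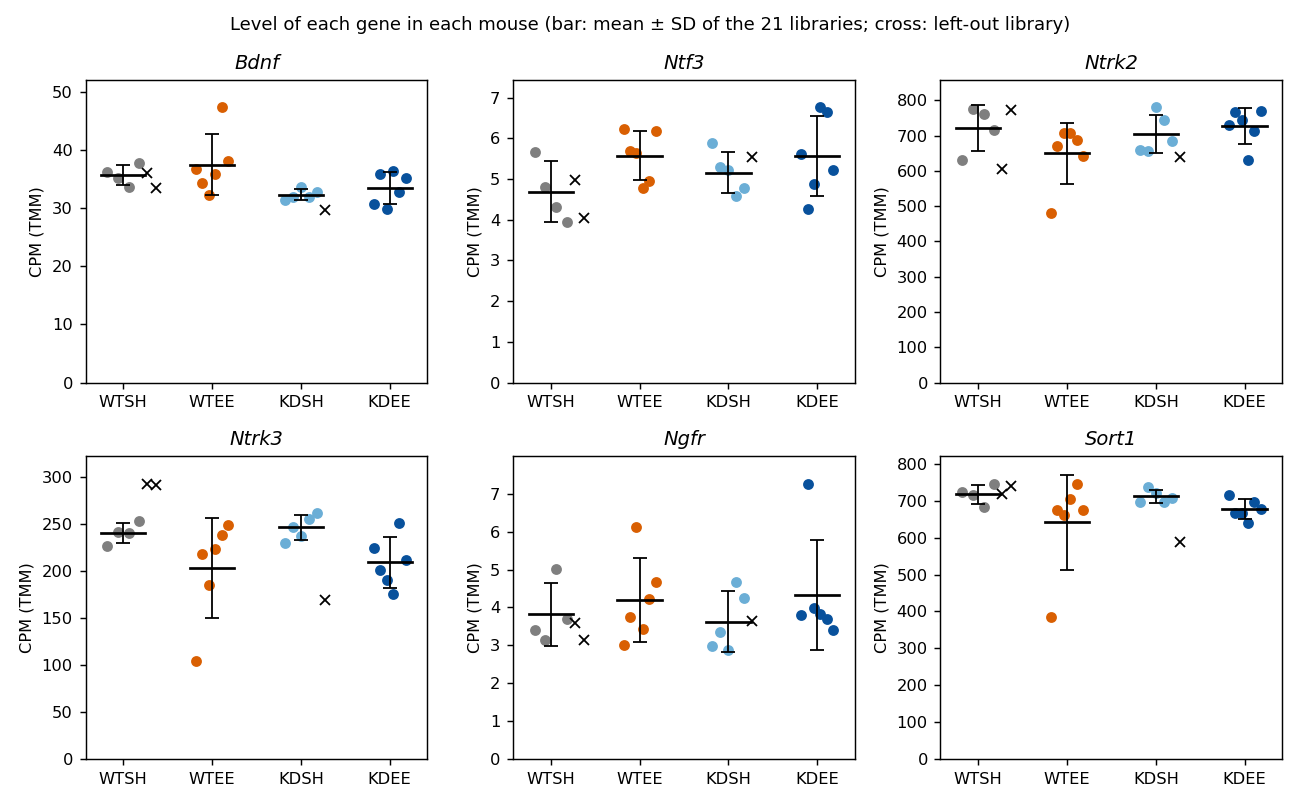
CPM of each gene in each mouse (y axis, from 0) by group (x axis), with the mean ± SD of the libraries compared as bars and the left-out mice WTSH 4, WTSH 7 and KDSH 6, scaled over all 24 libraries, as crosses. The groups overlap for every gene, Bdnf is highest in WTEE 17 (47.4 CPM), and WTEE 10 is far below the other mice for Ntrk3 (104 CPM) and Sort1 (386 CPM).

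Of the ligands, Bdnf was lower in MSK1 KD than in WT mice by a difference that did not pass the adjusted threshold. Bdnf was at 36.2, 35.2, 33.7 and 37.8 CPM in WTSH mice 2, 5, 19 and 23. In WTEE its lowest, median and highest values were 32.3, 36.3 and 47.4 CPM. The highest value, in WTEE 17, stood above all other mice. In KDSH mice 1, 3, 8, 18 and 24 Bdnf was at 31.3, 31.9, 33.7, 31.9 and 32.8 CPM, and in KDEE its lowest, median and highest values were 29.9, 34 and 36.3 CPM. The 4 WTSH and 5 KDSH mice overlapped only in that KDSH 8 lay just above WTSH 19, and 3 of the 4 WTSH mice were above every KDSH mouse.

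Over both housings Bdnf was at 36.8 ± 4.14 CPM in WT (SD, n = 10) and 32.9 ± 2.11 CPM in MSK1 KD mice (n = 11). Of the 11 MSK1 KD mice, 10 lay below the WT median and 5 below the lowest WT mouse, while 4 of the 10 WT mice lay above the highest MSK1 KD mouse. The log2 fold change of Bdnf was -0.15 (SE 0.06, 95% interval -0.27 to -0.04), a difference of -10.1%, with an unadjusted p of 0.0126 and an adjusted p of 1 by edgeR. Only 0.332% of the genes tested had a smaller unadjusted p value in this comparison, and the smallest adjusted p value of any gene was also 1. Within standard housing the log2 fold change of Bdnf was -0.14 (SE 0.09, unadjusted p = 0.11, edgeR) and within enrichment it was -0.16 (SE 0.07, unadjusted p = 0.036, adjusted p = 0.942, edgeR). The interaction for Bdnf was -0.02 (95% interval -0.26 to 0.21), so no dependence of this difference on housing was detected. Without WTEE 17, Bdnf in KDEE minus WTEE moved to -0.09 (unadjusted p = 0.131), and its unadjusted p value was also above 0.05 without WTEE 21, KDEE 9, KDEE 14 or KDEE 20. Between genotypes the log2 fold change of Bdnf kept its sign without any 1 library, from -0.17 to -0.12, with unadjusted p values of 0.00457 to 0.0312 by edgeR. With all 24 libraries it was -0.16 (unadjusted p = 0.00346, adjusted p = 0.655, edgeR), and the left-out mice had 36 CPM (WTSH 4), 33.4 CPM (WTSH 7) and 29.8 CPM (KDSH 6).

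With enrichment, the log2 fold change of Bdnf was 0.07 in WT (SE 0.08, 95% interval -0.10 to 0.24, unadjusted p = 0.406, edgeR) and 0.05 in MSK1 KD mice (SE 0.08, 95% interval -0.11 to 0.21, unadjusted p = 0.546, edgeR). As percentages, the interval for Bdnf reached from -6.76% to 18.1% in WT and from -7.54% to 15.5% in MSK1 KD mice. Enriched and standard-housed mice overlapped in both genotypes. Without WTEE 17 the log2 fold change of Bdnf in WT mice was -0.000694. The 3 genes whose log2 CPM was most like that of Bdnf over the 21 libraries were Scg2 (Pearson r = 0.73), which encodes a secretory granule protein, Crhbp (r = 0.73), which encodes a protein that binds corticotropin-releasing hormone, and Serpinf2 (r = 0.71), which encodes a plasmin inhibitor. Scg2 was also on the list of genes induced by BDNF fixed for the pathway. The genes most like a member, here and below, have the highest r among the 20187 genes tested, with group means not subtracted. These r values were not compared with what chance gives among so many genes, so no link to the member is drawn from them.

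Ntf3 was low in all groups, with 146 to 401 read pairs per library. It was at 5.68, 4.82, 4.31 and 3.94 CPM in WTSH mice 2, 5, 19 and 23, and its lowest, median and highest values in WTEE were 4.78, 5.65 and 6.23 CPM. In KDSH mice 1, 3, 8, 18 and 24 Ntf3 was at 5.88, 5.3, 5.22, 4.6 and 4.79 CPM, and in KDEE its lowest, median and highest values were 4.26, 5.43 and 6.76 CPM. The lowest value of all mice was in WTSH 23 and the highest in KDEE 15, and all groups overlapped. Over both genotypes Ntf3 was at 5.57 ± 0.781 CPM in enriched (SD, n = 12) and 4.95 ± 0.632 CPM in standard-housed mice (n = 9), a log2 fold change of 0.18 (SE 0.09, 95% interval -0.01 to 0.37, unadjusted p = 0.0564, adjusted p = 0.275, edgeR). In WT mice the log2 fold change of Ntf3 with enrichment was 0.25 (SE 0.13, unadjusted p = 0.0692) and in MSK1 KD mice 0.11 (SE 0.12, unadjusted p = 0.374), both by edgeR. The interaction for Ntf3 was -0.14 (95% interval -0.51 to 0.23, unadjusted p = 0.445, edgeR). Its longest annotated transcript, of 1483 bp, is the shortest such among the 6 genes, and the part of transcript length in these differences was not tested. The genes most like Ntf3 over the 21 libraries were C430049B03Rik (r = 0.72), Doc2g (r = 0.71) and Gm37829 (r = 0.67).

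Of the Trk receptors, Ntrk2, which encodes the BDNF receptor TrkB, had no difference that passed a threshold. Ntrk2 was at 630, 776, 761 and 716 CPM in WTSH mice 2, 5, 19 and 23. Its lowest, median and highest values were 482, 679 and 708 CPM in WTEE and 631, 738 and 771 CPM in KDEE. In KDSH mice 1, 3, 8, 18 and 24 it was at 660, 658, 781, 744 and 684 CPM. WTEE 10 had the lowest value of all mice, 0.677 times the median of the other 20, and the groups overlapped with and without it. In KDEE minus WTEE the log2 fold change of Ntrk2 was 0.16 (SE 0.08, 95% interval -0.01 to 0.34, unadjusted p = 0.068, adjusted p = 0.957, edgeR), and without WTEE 10 it was 0.09. With enrichment, the log2 fold change of Ntrk2 was -0.15 in WT (SE 0.09, unadjusted p = 0.124) and 0.04 in MSK1 KD mice (SE 0.09, unadjusted p = 0.634), with an interaction of 0.19 (95% interval -0.07 to 0.46, unadjusted p = 0.149), all by edgeR. Without WTEE 10 the value of Ntrk2 in WT mice was -0.08 and the interaction 0.12 (unadjusted p = 0.205, edgeR). The genes most like Ntrk2 were Slc4a4 (r = 0.92), which encodes a sodium bicarbonate cotransporter of astrocytes, Il6st (r = 0.91), which encodes the receptor subunit gp130, and Nwd1 (r = 0.91). Without WTEE 10 these r values were 0.80, 0.78 and 0.79.

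Ntrk3, which encodes the NT-3 receptor TrkC, was lower in enriched than in standard-housed mice by a difference that did not pass the adjusted threshold. It was at 226, 241, 240 and 253 CPM in WTSH mice 2, 5, 19 and 23, and at 230, 247, 236, 255 and 262 CPM in KDSH mice 1, 3, 8, 18 and 24. In WTEE mice 10, 11, 13, 16, 17 and 21 Ntrk3 was at 104, 218, 185, 223, 238 and 248 CPM, and in KDEE mice 9, 12, 14, 15, 20 and 22 at 225, 200.5, 190.5, 175, 251 and 211 CPM. The 9 standard-housed mice compared lay close together, and 9 of the 12 enriched mice were below the lowest of them. The left-out standard-housed mice lay farther apart. Scaled over all 24 libraries, they were at 292.5 CPM (WTSH 4), 291 CPM (WTSH 7) and 169.1 CPM (KDSH 6). Over both genotypes Ntrk3 was at 206 ± 40.1 CPM in enriched (SD, n = 12) and 243 ± 11.9 CPM in standard-housed mice (n = 9). The log2 fold change of Ntrk3 was -0.24 (SE 0.11, 95% interval -0.46 to -0.02, unadjusted p = 0.0337, adjusted p = 0.247, edgeR), and 13.7% of all genes tested had a smaller unadjusted p value. It was -0.24 in WT mice (SE 0.15, unadjusted p = 0.129) and -0.24 in MSK1 KD mice (SE 0.14, unadjusted p = 0.117), with an interaction of 0.01 (95% interval -0.43 to 0.45), all by edgeR. Without WTEE 10 it was -0.11 in WT mice (SE 0.09, unadjusted p = 0.241) and -0.23 in MSK1 KD mice (SE 0.08, unadjusted p = 0.00914, adjusted p = 0.126), with an interaction of -0.12 (SE 0.12, unadjusted p = 0.314), all by edgeR, so the equal values in both genotypes depend on that library. Between genotypes the log2 fold change of Ntrk3 was 0.04 (95% interval -0.18 to 0.26).

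Without WTEE 10, the log2 fold change of Ntrk3 between housings was -0.17 (unadjusted p = 0.0103, adjusted p = 0.1498, edgeR). Without any 1 library it ranged from -0.27 to -0.17, with unadjusted p values of 0.0103 to 0.0649 by edgeR, and these were above 0.05 without WTSH 5, WTSH 19, WTSH 23, WTEE 13, KDSH 24, KDEE 14 or KDEE 15. Ntrk3 has the longest annotated transcript of the 6 genes (19703 bp), and its level in WTEE 10 was 0.446 times the median of the other 20 libraries. The median log2 deviation of genes with transcripts longer than 6000 bp was -0.01 to 0.10 in the 9 standard-housed libraries and -0.57 to 0.06 in the 12 enriched libraries. It was lowest in WTEE 10, KDEE 15 (-0.15), KDEE 14 (-0.07) and WTEE 13 (-0.06), which were also the 4 libraries with the least Ntrk3. The part of transcript length in the difference of Ntrk3 was not tested. Genes of the choroid plexus summed to 5312 CPM in WTEE 10, 5950 CPM in WTEE 13, 9710 CPM in KDEE 12 and 2677 CPM in KDEE 14. These mice all had less Ntrk3 than any of the 9 standard-housed mice compared. WTSH 19, with 4410 CPM of the choroid plexus genes, had 240 CPM of Ntrk3. The part of the choroid plexus was not tested either. The genes most like Ntrk3 were RP24-369J8.1 (r = 0.98), Slitrk3 (r = 0.98), which encodes a synaptic adhesion protein, and Nktr (r = 0.98), and without WTEE 10 these r values were 0.95, 0.95 and 0.94.

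**Figure D3:**
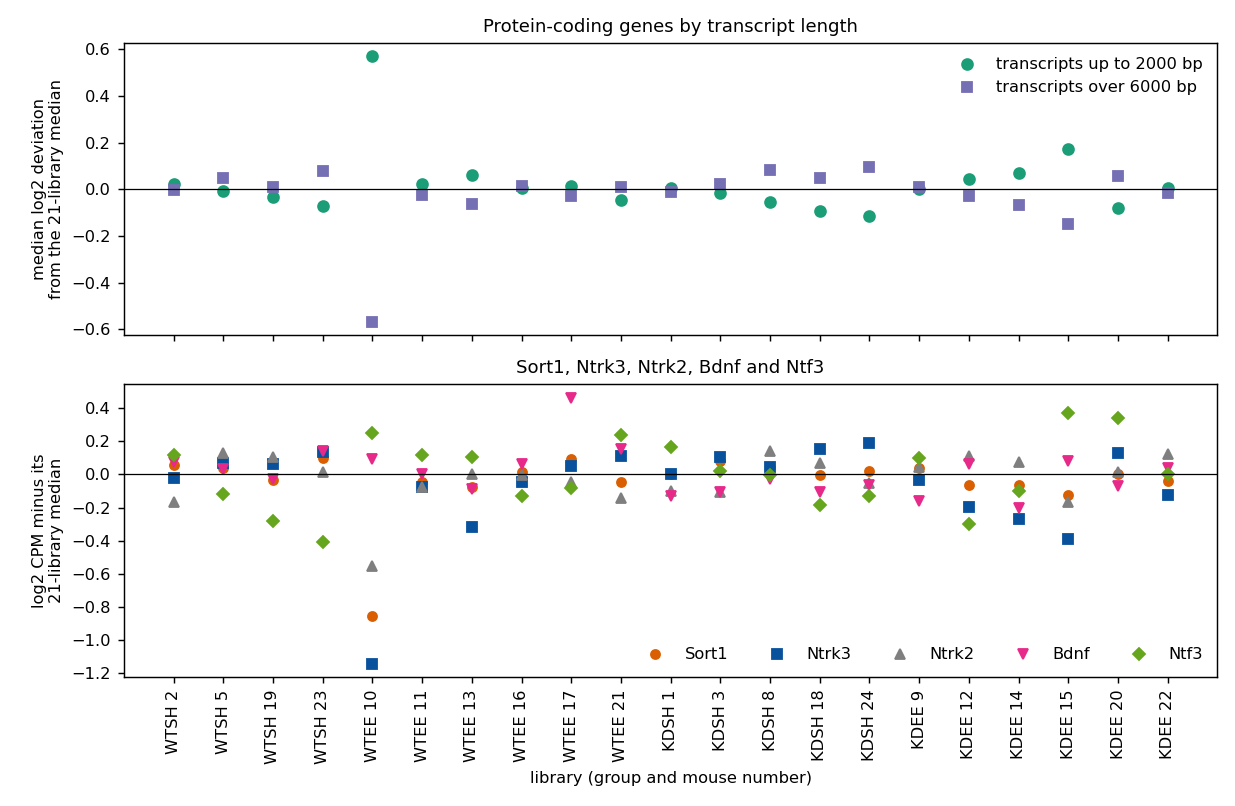
Upper panel, median log2 deviation from the 21-library median (y axis) of genes with transcripts up to 2000 bp and over 6000 bp in each library (x axis). Lower panel, log2 CPM of Sort1, Ntrk3, Ntrk2, Bdnf and Ntf3 minus the median of each gene. WTEE 10 lies at 0.57 and -0.57 in the upper panel and is the lowest library for Sort1, Ntrk3 and Ntrk2 but not for Bdnf or Ntf3, and KDEE 15 is next in the upper panel (0.17 and -0.15).

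Of the receptors of neurotrophin precursors, Ngfr was the least abundant member, with 95 to 436 read pairs per library, and it varied most between mice. Ngfr was at 3.4, 3.14, 5.03 and 3.69 CPM in WTSH mice 2, 5, 19 and 23, and at 2.99, 3.34, 2.87, 4.68 and 4.25 CPM in KDSH mice 1, 3, 8, 18 and 24. Its lowest, median and highest values were 3.01, 3.99 and 6.12 CPM in WTEE and 3.41, 3.81 and 7.27 CPM in KDEE. KDEE 12 and WTEE 13 stood above the rest, and all groups overlapped. Between housings the log2 fold change of Ngfr was 0.20 (SE 0.15, 95% interval -0.12 to 0.51, unadjusted p = 0.208, edgeR) and between genotypes -0.02 (95% interval -0.33 to 0.30). The coefficient of variation of Ngfr over the 21 libraries was 26.7%, against 10.7% for Bdnf, and the 95% interval of its difference between housings reached from -7.88% to 42.7%.

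The 3 libraries with the most Ngfr, KDEE 12, WTEE 13 and WTSH 19, held 9710, 5950 and 4410 CPM of the 7 choroid plexus genes. WTEE 10, with 5312 CPM of these genes, had 3.01 CPM of Ngfr, and KDEE 14, with 2677 CPM, had 4 CPM. The group ranges of the choroid plexus sum were 29.2 to 4410 CPM in WTSH, 45.6 to 5950 CPM in WTEE, 25.4 to 105 CPM in KDSH and 87.2 to 9710 CPM in KDEE. The summed markers of fibroblasts and meninges were highest in the same libraries. They were at 473.7 CPM in KDEE 12, 324.2 in WTEE 10, 267.5 in WTEE 13, 243.7 in WTSH 19 and 211.1 in KDEE 14. The part of either tissue in the level of Ngfr was not tested. Without KDEE 12 the log2 fold change of Ngfr between housings was 0.09. The genes most like Ngfr were Abhd2 (r = 0.87), Mcm9 (r = 0.87) and Prps2 (r = 0.87).

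Sort1 was the steadiest of the 6 genes apart from 1 library. It was at 724, 717, 682 and 747 CPM in WTSH mice 2, 5, 19 and 23, and at 697, 738, 721, 696 and 706 CPM in KDSH mice 1, 3, 8, 18 and 24. Its lowest, median and highest values were 386, 676 and 745 CPM in WTEE and 639, 673 and 717 CPM in KDEE. WTEE 10 held 0.553 times the median of the other 20 libraries, and without it the coefficient of variation of Sort1 was 4.22%. Between housings the log2 fold change of Sort1 was -0.12 (SE 0.08, 95% interval -0.28 to 0.05, unadjusted p = 0.15, edgeR), and without WTEE 10 it was -0.06. Between genotypes it was 0.03 (95% interval -0.13 to 0.20). The genes most like Sort1 were Garem1 (r = 0.99), Nos1ap (r = 0.99) and Dock4 (r = 0.98), with r values of 0.86, 0.84 and 0.86 without WTEE 10.

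**Figure D4:**
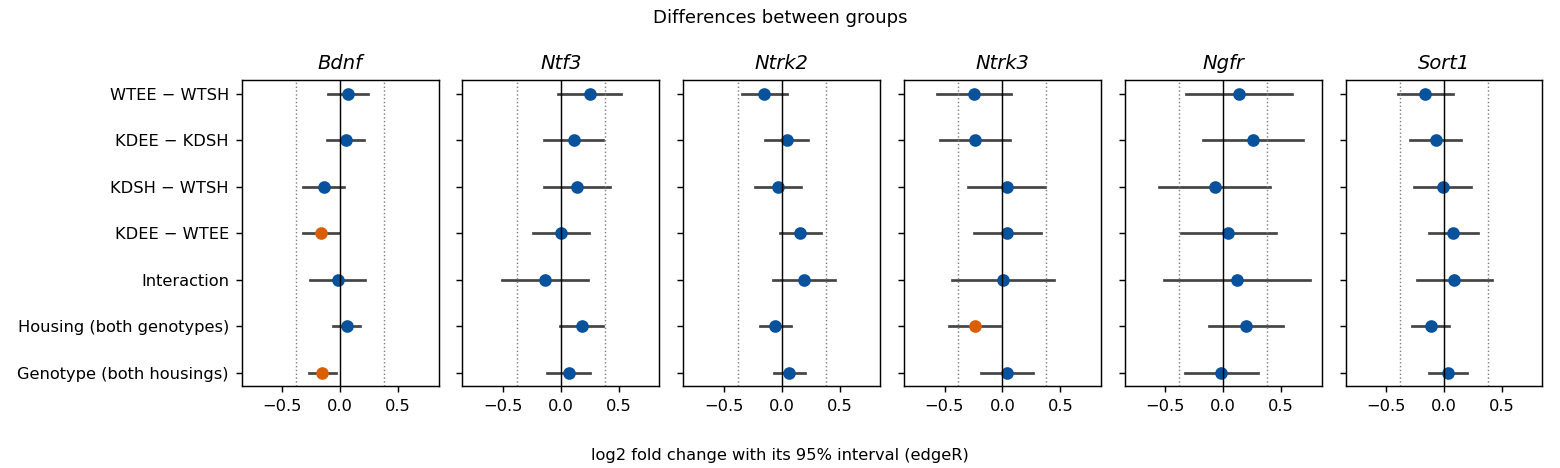
Log2 fold change (x axis, point) and its 95% interval (line) of each gene in the 7 comparisons (y axis) by edgeR, with dotted lines at the threshold of 0.38 in either direction. Points with an unadjusted p under 0.05 are orange, and these are Bdnf in KDEE minus WTEE and between genotypes and Ntrk3 between housings, with no value past the threshold.

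The members were also compared with each other over the 21 libraries after the group means were subtracted from log2 CPM, in 15 pairs with permutations within the groups. Sort1 and Ntrk3 varied together, with Pearson's r = 0.92 (permutation p = 0.0015, adjusted p = 0.0208) and Spearman's rho = 0.73 (permutation p = 0.00169, adjusted p = 0.0253). Without WTEE 10 and WTEE 21, r was 0.72. These were the libraries farthest from the median of Ntrk3 after the group means were subtracted, not by its level. Without WTEE 10 alone, r was 0.58 with an adjusted p of 0.193. The call was also lost without KDEE 15 (r = 0.92, adjusted p = 0.0633). Ntf3 and Ntrk2 varied in opposite directions, with r = -0.59 (permutation p = 0.00277, adjusted p = 0.0208) and rho = -0.56 (permutation p = 0.00986, adjusted p = 0.0739). Without KDEE 12 and KDEE 15 this r was -0.54, and without WTEE 10 it was -0.65 with an adjusted p of 0.0994. This call was also lost without WTSH 2 (r = -0.52, adjusted p = 0.0991), WTEE 16 (adjusted p = 0.0501), WTEE 17 (adjusted p = 0.0523) or KDEE 15 (adjusted p = 0.0633). The longest annotated transcript is 1483 bp for Ntf3, 8744 bp for Ntrk2, 19703 bp for Ntrk3 and 6836 bp for Sort1. The part of transcript length in these correlations was not tested. The other 13 pairs had adjusted p values of 0.19 or more. For Bdnf and its receptor gene Ntrk2, r was -0.06 (permutation p = 0.829, adjusted p = 0.889) and rho was -0.14 (permutation p = 0.561, adjusted p = 0.926).

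**Figure D5:**
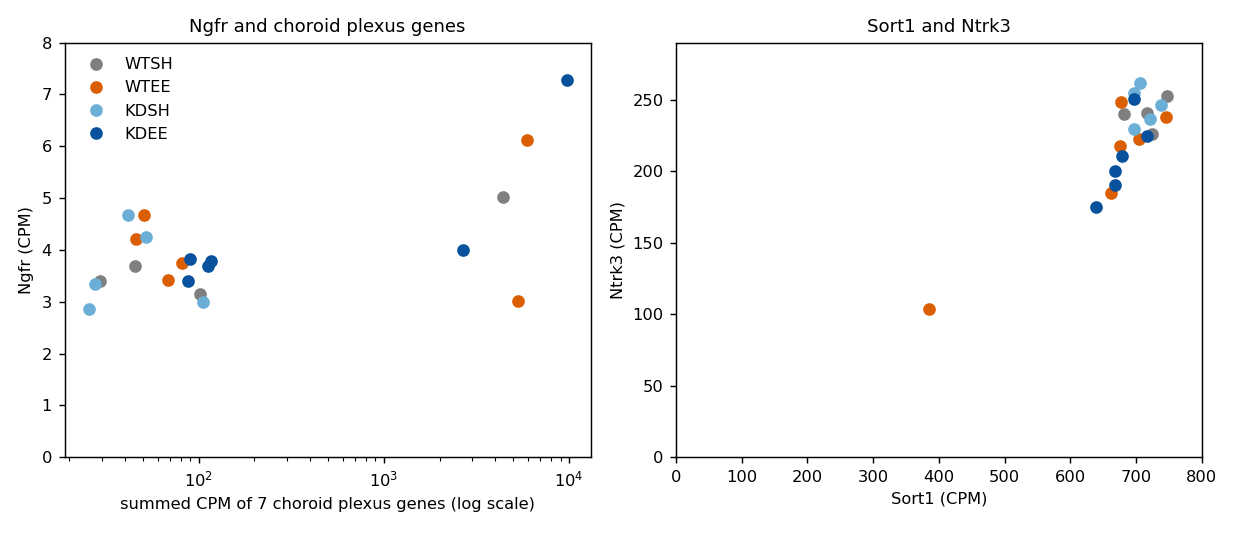
Left, Ngfr (CPM) against the summed CPM of 7 choroid plexus genes on a log scale, 1 point per mouse, coloured by group. Right, Ntrk3 (CPM) against Sort1 (CPM). The 2 mice with the most Ngfr, KDEE 12 and WTEE 13, also have the largest choroid plexus sums (9710 and 5950 CPM), and WTEE 10 lies apart at 386 CPM of Sort1 and 104 CPM of Ntrk3.

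The rest of the pathway was read from 6 lists of 79 symbols, of which 75 passed the filter on low counts. None of the 75 genes was called by edgeR in any of the 7 comparisons, against the same background of 0, or 0.00495% between housings. DESeq2 called 1 of them between housings, Homer1, and 0 in the other comparisons. At an unadjusted p under 0.05, 4 pathway genes were higher and 9 lower between housings, where 9.77% and 9.13% of all genes were. Between genotypes 1 was higher and 2 were lower, against 0.758% and 1.14% of all genes. For WTEE minus WTSH the counts higher and lower were 0 and 3, against 3.95% and 2.6% of all genes. For KDEE minus KDSH they were 4 and 5, against 5.64% and 5.98%. For KDSH minus WTSH they were 0 and 0, against 0.5% and 0.5%, and for KDEE minus WTEE 0 and 2, against 1.77% and 3.21%. For the interaction they were 1 and 0, against 0.971% and 2.29%. The median log2 fold change of the 75 genes between housings was -0.04, beside 0.01 over all genes, and between genotypes it was 0.00 for both.

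Ntf5, which encodes NT-4, another ligand of TrkB, was at 0.129 FPKM. In the list of sortilin relatives and p75 partners, Maged1, which encodes a protein that binds p75, had the highest level (153 FPKM) and Sorcs1, a relative of sortilin, the lowest (2.42 FPKM), and the 11 genes tested had a median log2 fold change of -0.06 between housings. In the list of proneurotrophin processing, Cpe, which encodes carboxypeptidase E and takes part in sorting proBDNF, was at 1040 FPKM, and Mmp3, which encodes a matrix metalloproteinase, was lowest at 0.201 FPKM. Mmp3 had the smallest p value of the pathway in KDSH minus WTSH, with a log2 fold change of 1.03 (SE 0.53, unadjusted p = 0.0633, adjusted p = 1, edgeR), at a level of 0.362 CPM.

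Among the adaptors that couple Trk receptors to their effectors, Grb2 was highest (43.9 FPKM) and Sh2b2 lowest (1.08 FPKM). Shc2, which encodes an adaptor of the Shc family, had log2 fold changes with enrichment of -0.20 in WT (SE 0.08, unadjusted p = 0.0278, adjusted p = 0.651) and -0.22 in MSK1 KD mice (SE 0.08, unadjusted p = 0.0107, adjusted p = 0.375), both by edgeR. Pik3r1, which encodes a regulatory subunit of PI3 kinase, had the smallest p value of the pathway for the interaction, with a value of 0.21 (SE 0.10, unadjusted p = 0.0452, adjusted p = 1, edgeR), and Ptpn11, which encodes the phosphatase SHP2, followed with 0.17 (unadjusted p = 0.109).

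Along the ERK cascade to MSK, Map2k1, which encodes MEK1, was highest at 95.4 FPKM and Rps6ka5 lowest at 1.94 FPKM. Between housings 1 gene of this list was higher and 4 were lower at an unadjusted p under 0.05, of 14 tested, where 9.77% and 9.13% of all genes were. Mapk14, which encodes the p38α kinase that also activates MSK1, had a log2 fold change of -0.12 between housings (SE 0.03, 95% interval -0.19 to -0.06, unadjusted p = 0.000836, adjusted p = 0.179, edgeR) and -0.16 in MSK1 KD mice alone (SE 0.04, unadjusted p = 0.00104, adjusted p = 0.338, edgeR).

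Of the genes known to be induced by BDNF, Vgf, which encodes a neurosecretory protein, was highest at 76.7 FPKM and Egr2 lowest at 1.3 FPKM. Homer1, which encodes a postsynaptic scaffold with an activity-induced short form, was at 79.0 ± 7.99 CPM in enriched (SD, n = 12) and 104 ± 22.3 CPM in standard-housed mice (n = 9). Its log2 fold change between housings was -0.40 (SE 0.09, 95% interval -0.59 to -0.20, unadjusted p = 0.000429, adjusted p = 0.174, edgeR), the smallest p value of the pathway in that comparison. With enrichment, the log2 fold change of Homer1 was -0.43 in WT (SE 0.14, unadjusted p = 0.00497, adjusted p = 0.651, edgeR) and -0.36 in MSK1 KD mice (SE 0.13, unadjusted p = 0.0118, adjusted p = 0.377, edgeR), with an interaction of 0.07 (95% interval -0.32 to 0.47). Scg2 had a log2 fold change between genotypes of -0.12 (SE 0.04, unadjusted p = 0.0101, adjusted p = 1, edgeR), and in KDEE minus WTEE it was -0.14 (SE 0.05, unadjusted p = 0.0204, adjusted p = 0.753, edgeR). Dusp5, which encodes a phosphatase of ERK, was at -0.35 in KDEE minus WTEE (SE 0.14, unadjusted p = 0.0176, adjusted p = 0.706, edgeR). Tac1, which encodes the precursor of substance P, was at -0.29 in KDSH minus WTSH (SE 0.16, unadjusted p = 0.0776, adjusted p = 1, edgeR). Over the 17 genes of this list the median log2 fold change between genotypes was -0.10, beside 0.00 over all genes. At an unadjusted p under 0.05 by edgeR, 0 were higher and 2 lower, against 0.758% and 1.14% of all genes. The median of the list was -0.01 in KDSH minus WTSH and -0.14 in KDEE minus WTEE, so it was near 0 within standard housing.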

How the data were processed

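Poly(A) RNA libraries were prepared with TruSeq v2 and sequenced as read pairs on an Illumina HiSeq with several samples to a lane, and the lanes are not given in the labels. The authors checked reads with FastQC 0.11.3, trimmed them with Skewer, aligned them to GRCm38 with STAR 2.5 and counted uniquely aligned pairs per gene, without strand, with HTSeq 0.6.1p1. The deposited values are raw counts per gene symbol, with 5 rows of read classes that were kept out of all totals. In the 21 libraries 8.41% to 15.7% of read pairs fell on no gene and 4.14% to 6.57% were ambiguous, and in the 3 left out 16.4% to 33% and 9.4% to 17.2%. The study left out WTSH mice 4 and 7 for ribosomal RNA and a low correlation with their group and KDSH mouse 6 for a low correlation. A supplementary figure of the paper also marks mouse 6 for ribosomal RNA, at a smaller share than mice 4 and 7. Read pairs can include PCR copies of 1 molecule, and p values measure the spread between mice, of which some may share a cage.

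Genes were tested with edgeR 4.0.16 in R 4.3.3 (TMM, its default filter on low counts, 4 group means, 21 libraries). Standard errors are the absolute log2 fold change divided by the root of F. The 95% intervals use the t distribution with the total degrees of freedom of the fit, 21.1 for the members. These add degrees of freedom estimated over all genes to the residual ones of the gene. CPM are counts scaled to the TMM-adjusted total of the library, and FPKM divides them by the length of all exons in GENCODE M21, to which 95.1% of symbols matched. The design was taken from the study except that edgeR replaced DESeq2 (version 1.42.0, kept as an alternative). Correlations used log2 CPM with a prior count of 2 and 100000 permutations within groups. The members, the gene lists and the tests were chosen with earlier results of these data known. The genes named are the 6 members, the 3 genes most like each, the pathway genes of highest and lowest level in each list, the 2 with the smallest p value in each comparison, and Rps6ka5. On counts simulated for WTEE minus WTSH over 19876 genes, the test recovered 200 of 200 genes changed by a log2 fold change of 1, with 16 false calls among 216, and called 0 where nothing was changed. The changed genes were drawn from those with higher counts, all genes had the same dispersion (0.02), and no library like WTEE 10 was simulated. The simulation therefore does not show whether differences as small as those of the members would be found. Alternatives were RLE size factors, DESeq2, no filter, at least 10 counts in every library, all 24 libraries, only the groups compared, a robust fit, no fold change threshold, and each library left out. The split of genes by transcript length was chosen after the data were seen. Amino acid sequences were not used here. Some genes of the pathway lists are not reported here.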

Additional observations from a re-analysis of the deposited data

Results flagged for a closer look

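Of the 24 sets of values examined (6 genes in 4 groups, of which those of 4 to 6 mice can be tested for 1 mouse far from the rest by Dixon's ratio), 3 held such a mouse, where chance gives about 1 in 20. Ntrk2 in WTEE 10 was lowest of 6 at 482 CPM and Sort1 in WTEE 10 was lowest of 6 at 386 CPM. Both lie in the library whose long transcripts were low (median log2 deviation -0.57) and short transcripts high (0.57). Ngfr in KDEE 12 was highest of 6 at 7.27 CPM. That library had the largest sums of choroid plexus genes (9710 CPM) and of fibroblast and meninges genes (473.7 CPM). The part of these properties was not tested.

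Among the 3 libraries left out by the study, scaled together with the other 21, 4 values lay above all 21. Ntrk2 was at 773 CPM in WTSH 7. Ntrk3 was at 292 CPM in WTSH 4 and 291 CPM in WTSH 7, while KDSH 6 was at 169 CPM. Sort1 was at 739 CPM in WTSH 7. Bdnf, Ntf3 and Ngfr in these libraries lay within the range of the others.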

How the results depend on the processing

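The count of members called was 0 in all 7 comparisons under each alternative that gave one and without each of the 21 libraries in turn. The lowest adjusted p value of a member under any of them was 0.126, for Ntrk3 in KDEE minus KDSH without WTEE 10. Of the 42 log2 fold changes, 37 kept their direction under all alternatives other than leaving out a library. With all 24 libraries, 3 reversed, Ntrk3 in KDSH minus WTSH (-0.153) and between genotypes (-0.0548) and Ngfr between genotypes (0.00855). With no filter on low counts Ntf3 in KDEE minus WTEE was 0.00171, and with at least 10 counts in every library the interaction for Ntrk3 was -0.00263. Between housings, 1 member passed an unadjusted p of 0.05 in edgeR on 21 libraries, and 2 passed with DESeq2 and with all 24 libraries. The added member was Ntf3, with an unadjusted p of 0.0431 by DESeq2 and 0.0374 by edgeR on 24 libraries. For WTEE minus WTSH, members at an unadjusted p under 0.05 by edgeR went from 0 to 2 with all 24 libraries. Over all genes, 1322 of 20187 passed there with 21 libraries and 3631 of 19817 with 24. For KDSH minus WTSH they went from 0 to 1, with 202 of 20187 and 479 of 19817 genes passing. Homer1 was called between housings with all 24 libraries and by DESeq2 (1 pathway gene against 0). Over all genes, DESeq2 called 118 in KDEE minus WTEE, 41 between housings, 20 for the interaction, 14 in KDEE minus KDSH and 2 in WTEE minus WTSH, where edgeR called 0, 1, 0, 0 and 0. With the length of the longest transcript, the level per length was 8.15 for Bdnf, 3.58 for Ntf3, 79.9 for Ntrk2 and 11.3 for Ntrk3.

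Without 1 library, 16 log2 fold changes reversed, none larger than 0.139 in absolute value. For WTEE minus WTSH the ranges were -0.000694 to 0.109 for Bdnf and -0.00182 to 0.304 for Ngfr. For KDSH minus WTSH they were -0.0948 to 0.00322 for Ntrk2, -0.184 to 0.0888 for Ngfr and -0.0365 to 0.00508 for Sort1. For KDEE minus WTEE they were -0.0647 to 0.0653 for Ntf3, -0.0897 to 0.109 for Ntrk3, -0.166 to 0.184 for Ngfr and -0.0302 to 0.123 for Sort1. For the interaction they were -0.0616 to 0.0495 for Bdnf, -0.123 to 0.0729 for Ntrk3, -0.0928 to 0.258 for Ngfr and -0.0164 to 0.133 for Sort1. Between genotypes they were -0.028 to 0.0724 for Ntrk3, -0.12 to 0.0673 for Ngfr and -0.0221 to 0.0561 for Sort1. The number of member pairs with an adjusted p under 0.05 for their correlation ranged from 0 to 2. The cause of these changes was not tested. Ngfr had the lowest median of read pairs among the members (179, with a range of 95 to 436), and the part of depth was not tested. No paired analysis was possible because each of the 24 mice has a number of its own, so that groups share none.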
